A study of Mus musculus with 11 samples.

Results

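The proteasome genes of the mouse retinal pigment epithelium (RPE) and choroid are described here, 3 months after a nanosecond laser treatment of the eye. Genes were taken by symbol, as every row of the count table whose gene name starts with Psm, followed by a letter from a to g and a digit. The rule returned 48 of the 14602 genes measured. It took 47 proteasome genes and 1 gene that only shares the stem of the symbol, Psmc3ip, whose product is a partner of the meiotic recombination machinery and which is kept apart. The 47 genes were the 8 alpha subunits and 7 constitutive beta subunits of the 20S core, 3 interferon-induced beta subunits, 6 ATPases and 11 lid and base subunits of the 19S cap, 4 activators, 1 inhibitor and 7 assembly chaperones.

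All mice were C57BL/6J, a wildtype strain, and all tissue was RPE and choroid collected at 12 months of age. The laser treated group received the 2RT nanosecond laser in 1 eye at 9 months of age and recovered until collection (5 libraries), and the naïve control group was of the same age and received no laser (6 libraries). The neural retina was removed before lysis, and RNA was pre-amplified with a SMART-Seq kit before Nextera XT library preparation. The comparison asked whether a single laser treatment left a lasting change in the transcriptome of the aged RPE. The labels describe the libraries as tissue from control and treated animals, but do not tie each library to a single mouse, so p-values measure the spread between these libraries.

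Total counts ranged from 25700881 to 36766020 in the control and from 32094560 to 38755994 in the laser libraries. Of 12 RPE markers 11 were expressed in every library, with a summed level of 93105 to 128927 CPM (counts scaled to library size with TMM factors) in control and 75107 to 124130 CPM in laser libraries, while Best1 lay between 0 and 3.08 CPM. Markers of neural retina were present at 6576 to 29013 CPM in control and 4651 to 19584 CPM in laser libraries. Of their 10 genes 2, Pdc and Gngt1, were lower after laser at an unadjusted p under 0.05, against 7.68% of all genes. Summed leukocyte markers lay at 269.6 to 517 CPM and 365 to 622 CPM, and none of the 10 measured genes of 12 listed passed that threshold. None of the 18 endothelial, fibroblast and muscle markers and 1 of the 4 blood markers passed it. Their part in the results on the proteasome was not tested. The average transcript GC content, weighted by counts, was 49.2 to 50.05% in control libraries and 50.17 to 50.68% in laser libraries, with no overlap between the groups.

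The proteasome degrades proteins that carry ubiquitin chains. Its 20S core is a barrel with outer rings of alpha subunits, which gate the channel, and inner rings of beta subunits, some of which carry the proteolytic sites. The 19S cap binds and removes ubiquitin and threads the substrate into the core with a ring of ATPases. Interferon replaces the catalytic beta subunits by induced ones, which form the immunoproteasome. In the RPE, which takes up shed photoreceptor outer segments for life, the proteasome acts beside the lysosome in clearing damaged protein.

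Most genes of the 20S core had a log2 fold change (laser over control) below 0, and those of the 19S cap lay on both sides of 0. Of the 18 core genes, 16 had a log2 fold change below 0, with a median of −0.33, and of the 17 cap genes 9 did, with a median of −0.04; the difference between the subcomplexes was not tested. Over the 48 members the median log2 fold change was −0.13, against −0.02 over all genes (it was −0.02 among libraries with the header label R1 and in TPM, the other unit deposited), and 34 were below 0 (51.5% of all genes were) and 14 above. No member passed an adjusted p of 0.05 in the quasi-likelihood F test of edgeR (Benjamini-Hochberg adjusted over all genes), where the smallest adjusted p of a member was 0.172. No gene of the table passed it either (0%). At an unadjusted p under 0.05, 12 members were lower, against 7.68% of all genes, and 2 were higher, against 8.24% of all genes. DESeq2 put 6 members below an adjusted p of 0.05, all lower after laser (Psma1, Psma3, Psma5, Psmd6, Psmd14 and Psmg2), against 3.75% of all genes. That share counts genes that DESeq2 left without an adjusted p as not called, among them Psma8, Psmb8, Psmb9, Psmb10 and Psmc3ip. Without control library 6 and laser library 5, edgeR put 3 of these 6 members below an adjusted p of 0.05 (Psma3, Psmd14 and Psmg2), against 2.66% of all genes. Control library 6 held the lowest control sum of alpha transcripts (1664 CPM) and laser library 5 the highest laser sum (1564 CPM). Leaving both out moved the alpha median from −0.48 to −0.59, so these calls lend no separate support. Since the tissue is a mixture, fewer cells of a type and less RNA per cell cannot be told apart.

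Transcript GC content moved with these differences. Across all 14252 genes with a known GC content, Spearman's rho between GC content and log2 fold change was 0.465. Across 47 members (all but Psma8) it was 0.47 (both across genes, which are not independent replicates). The 12 members that were lower had a GC content of 37 to 51% with a median of 45.8%, and the 2 that were higher had 51.3% and 58.3%. When a smooth trend on GC content was removed in each library, rho fell to 0.0108 over all genes and −0.133 over the members. In those values 8 members were lower at an unadjusted p under 0.05, against 4.38% of all genes, and none was higher, against 3.8% of all genes. The median over all members was −0.16 (−0.28 over the core and −0.03 over the cap) and the smallest adjusted p was 0.569. Of the 14 members past the unadjusted threshold before, 6 remained, namely Psma5, Psmb1, Psmb2, Psmd6, Psmd14 and Psmg2. Without laser library 5 the same fit had 14 lower and 2 higher members (a setting chosen after the data were seen). The share of all genes was not computed for that setting, so its counts are not read as a result about the members. In the counts as deposited, treatment and the GC composition of the libraries cannot be told apart, so values with the GC trend removed are given beside those of each group.

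**Figure D1:**
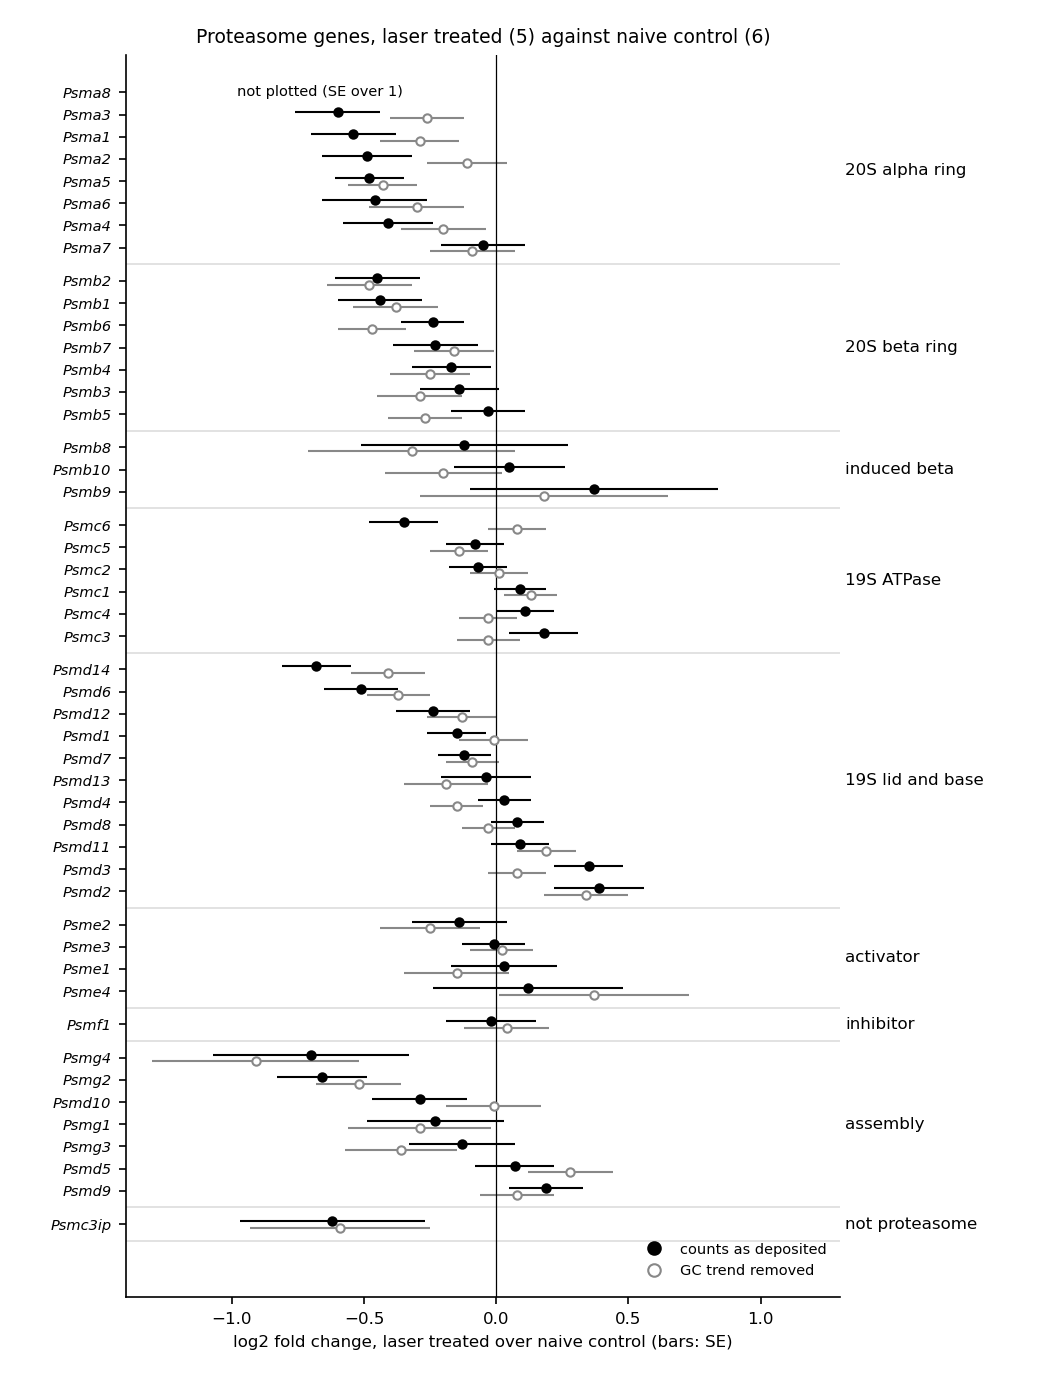
The log2 fold change of each member (laser treated over naïve control, x axis) with its SE, sorted within its class, from the counts as deposited (filled) and after removal of the GC trend (open). All alpha and constitutive beta subunits lie below 0 in both, the ATPases lie on both sides of 0, and Psmd14 is the lowest and Psmd2 the highest of the lid and base in the filled points; Psma8, with an SE of 1.82, is named but not plotted.

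**Figure D2:**
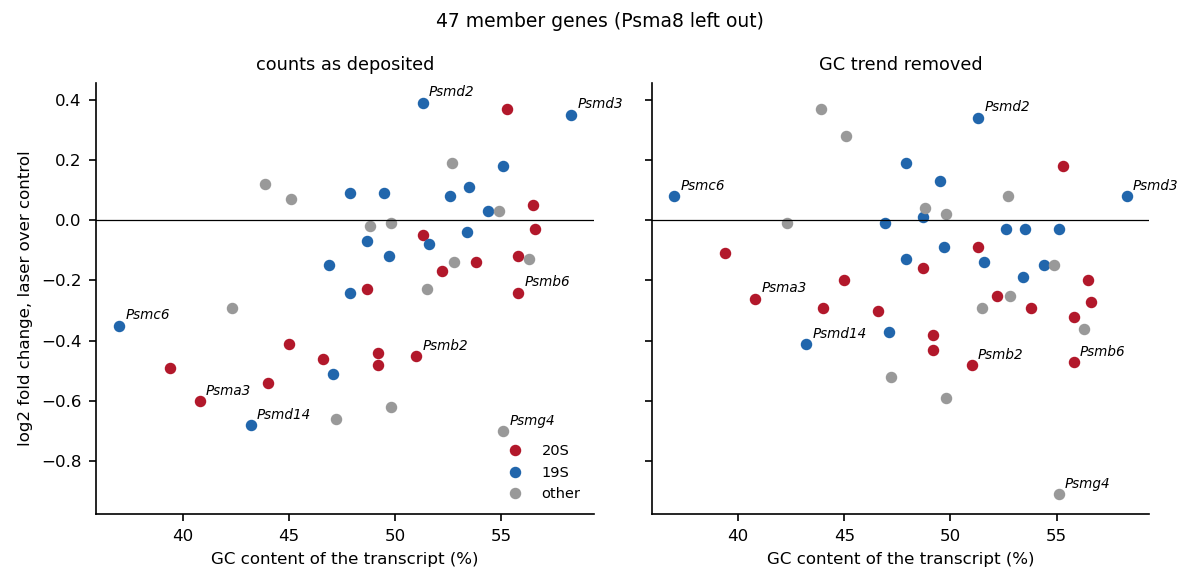
Log2 fold change (y axis) against transcript GC content in percent (x axis) of 47 members (all but Psma8), in the counts as deposited (left) and with the GC trend removed (right), coloured by subcomplex. On the left the low-GC genes Psma3, Psmd14 and Psmc6 lie below 0 and the GC-rich Psmd3 above it; on the right Psmc6 lies at 0.08 and Psmb6 has moved down to −0.47.

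Among the alpha genes, 6 of 8 (Psma1 to Psma6) were lower at an unadjusted p under 0.05, against 7.68% of all genes, and none passed an adjusted p of 0.05. All 8 had a log2 fold change below 0, with a median of −0.48, but that of Psma7 was −0.05 and Psma8 was barely expressed. The summed alpha level was 1664, 1736 and 2098 CPM at the lowest, median and highest control library, and 1563, 1281, 1170, 874 and 1564 CPM in laser libraries 1 to 5. Each laser library thus lay below each control library in the summed alpha transcripts. With the GC trend removed the sums were 1475 to 1700 CPM and 929.7 to 1671 CPM and overlapped, the 8 genes stayed below 0 with a median of −0.28, and 1 of them, Psma5, was lower at an unadjusted p under 0.05. The median was −0.36 among the libraries that carry the label R1 in their transcript files (3 control, 2 laser) and −0.42 among those with R2 (the other 3 and 3), a label whose meaning is not stated. Within R1, 6 of the 8 genes lay below 0, and Psma7 (0.21) and Psma8 (1.62) above. In TPM (pseudocount 1), 5 of the 8 genes lay below 0 and the median was −0.28, and Psma4 (0.75 ± 1.28), Psma6 (0.06 ± 0.30) and Psma7 (0.27 ± 0.27) lay above 0.

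Psma3 (ENSMUSG00000060073, chr12:70974621-70996347 on GRCm38, plus strand) encodes the alpha subunit with the lowest fold change among those expressed in this tissue. Its level was 398, 490.3 and 585 CPM in the lowest, median and highest control library and 401, 290.1, 311, 222 and 401 CPM in laser libraries 1 to 5. Only control library 6 lay among the laser values. The log2 fold change was −0.60 ± 0.16 (SE), with an adjusted p of 0.174, and it was −0.26 after removal of the GC trend (GC content 40.8%).

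Psma1 (chr7:114264606-114276118, minus strand) had the highest level per length of all members, with the longest annotated transcript taken as the length. It lay at 381, 424 and 505 CPM in control libraries and at 352, 346, 261, 189.6 and 323 CPM in laser libraries, so that the groups did not overlap. The fitted log2 difference was −0.54 ± 0.16 (adjusted p = 0.177), and −0.29 with the GC trend removed.

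Psma5 (chr3:108256926-108279974, plus strand) has a GC content of 49.2%, close to the median gene. Control libraries lay at 92.7, 109 and 127 CPM and laser libraries at 89.2, 73.6, 79, 60.6 and 93.8 CPM, with laser library 5 the only one above the lowest control. Its difference of −0.48 ± 0.13 on the log2 scale (adjusted p = 0.174) was −0.43 with the GC trend removed, the only alpha gene still past the unadjusted threshold. Psma2, at 192, 238 and 308 CPM in control and 211, 158, 164, 126 and 221 CPM in laser libraries, had a GC content of 39.4%. On the log2 scale its difference was −0.49 ± 0.17 (adjusted p = 0.21) in the counts and −0.11 with the GC trend removed, the largest such shift among the alpha genes past the unadjusted threshold.

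Psma4 and Psma6 had log2 fold changes of −0.41 and −0.46. These were the alpha genes that lost the unadjusted threshold when single libraries were left out (control 1, 3, 5 or 6, or laser 2, 3 or 4), so that 4 to 6 alpha genes passed it. Psma7, the most GC-rich alpha gene (51.3%), had −0.05 ± 0.16 (adjusted p = 0.922). Psma8, the alpha subunit of the testis, was close to 0: control libraries lay between 0 and 5.05 CPM and laser libraries at 1.3, 0, 1.14, 0 and 0 CPM, so no direction can be read from it.

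The constitutive beta genes had a smaller median difference. All 7 had a log2 fold change below 0 with a median of −0.23. At an unadjusted p under 0.05, 2 of them, Psmb1 and Psmb2, were lower, against 7.68% of all genes. Without laser library 1, 4 of the 7 were lower, but the share of all genes was not computed for that fit. Their summed level was 1120, 1167 and 1219 CPM in control libraries and 1147, 935, 857, 653 and 1146 CPM in laser libraries. Laser libraries 2, 3 and 4 lay below every control, and libraries 1 and 5 lay among the controls. The 7 beta genes had a GC content of 48.7 to 56.6%, with a median of 52.2% against 50.3% over all genes. With the GC trend removed the median was −0.29 and 3 of the 7 were lower (Psmb1, Psmb2 and Psmb6), against 4.38% of all genes. The size of the median depended on the libraries and the processing. It was −0.02 among R1 libraries, with 4 of 7 genes below 0 and Psmb3 (0.07), Psmb4 (0.02) and Psmb5 (0.16) above, and −0.27 among R2 libraries, with 7 of 7 below 0. It was −0.05 once a trend on transcript length was removed and −0.13 in TPM.

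Psmb1 (chr17:15475021-15499751, minus strand), a structural beta subunit without a proteolytic site, lay at 268, 299 and 322 CPM in control and at 264, 228, 199, 132 and 266 CPM in laser libraries. The groups did not overlap, though libraries 1 and 5 came close to the lowest control. On the log2 scale the difference was −0.44 ± 0.16 (adjusted p = 0.222), −0.38 with the GC trend removed, and 0.08 in the TPM values of the deposited transcript files. Psmb2 (chr4:126677630-126709714, plus strand), also structural, lay at 252, 272 and 294 CPM and at 244, 186, 171, 135 and 264 CPM. Its log2 fold change was −0.45 ± 0.16 (adjusted p = 0.208) and −0.48 with the GC trend removed.

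Laser library 4 stood at the low end of the core in general. Each of the 14 standard core genes (alpha without Psma8, and constitutive beta) had its lowest value of all 11 libraries there, and in 13 of the 14 the highest laser libraries were 1 and 5. Among the 17 cap genes library 4 held the lowest value of all in 4, and libraries 1 and 5 were the highest laser libraries in 1. Without library 4 the alpha median was −0.41 and the beta median was −0.13, against −0.48 and −0.23 with it. The core genes moved together within groups, so counts of them are not independent. The median Pearson r of deviations from the group mean was 0.704 among alpha genes, 0.854 among beta genes and 0.741 between them. It was −0.0428 among ATPases and 0.33 among lid and base genes. The share of all genes that were lowest in library 4 was not computed.

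**Figure D3:**
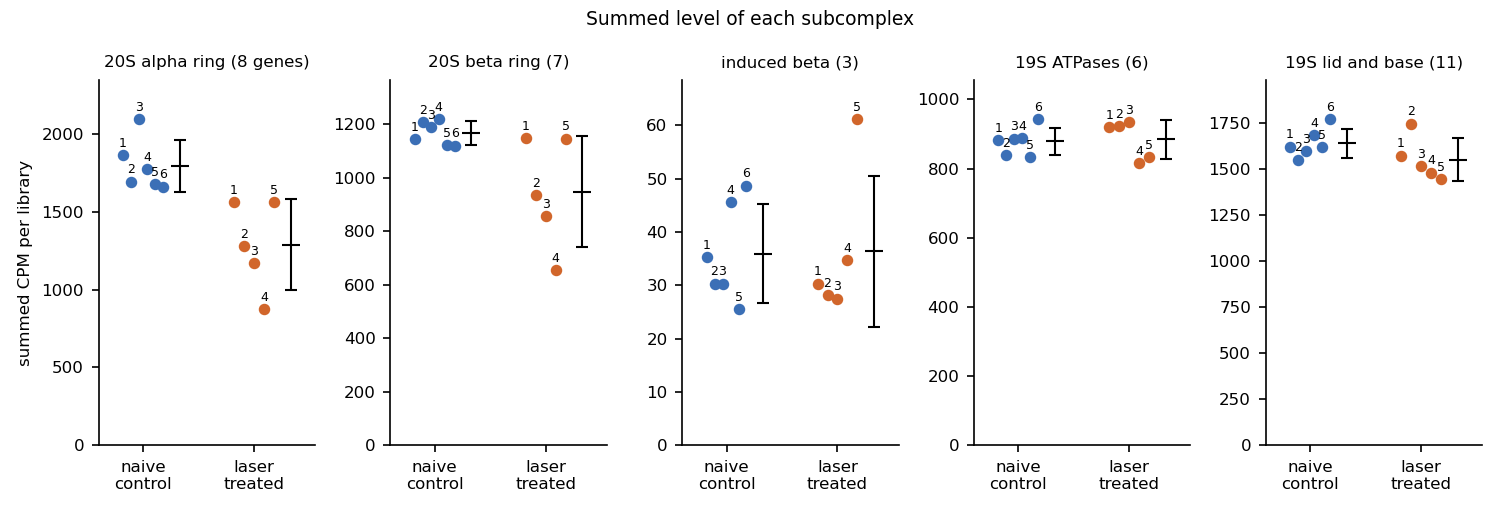
Summed CPM of each subcomplex in every library (numbered points), with the mean and SD of each group beside them (6 naïve control, 5 laser treated). The alpha sums do not overlap between the groups, the beta sums overlap only through laser libraries 1 and 5, and the ATPase and the lid and base sums overlap broadly.

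The 6 ATPases of the cap lay at 833, 884.5 and 943 CPM in sum in control libraries and at 919, 922, 935, 815 and 832 CPM in laser libraries. The groups overlapped, and the median log2 fold change was 0.01, with 3 genes on each side of 0. The median was −0.01 with the GC trend removed, where none of the 6 passed the unadjusted threshold. Against this sum the alpha sum was 1.76 to 2.37 times as large in control and 1.07 to 1.88 times in laser libraries. The ratio of alpha to beta sums was 1.4 to 1.76 in control and 1.34 to 1.37 in laser libraries, and with the GC trend removed it was 1.2 to 1.51 and 1.39 to 1.64, so that its direction depended on that step.

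Psmc6 (chr14:45329788-45349705, plus strand) was the only ATPase past the unadjusted threshold, which 7.68% of all genes passed as lower. It lay at 94, 124 and 141 CPM in control and at 109, 77, 89.9, 107 and 93.6 CPM in laser libraries, with the groups overlapping. Its log2 fold change was −0.35 ± 0.13 (adjusted p = 0.238), but Psmc6 had the lowest GC content of all members (37%) and its sign changed to 0.08 with the GC trend removed. It did not pass the unadjusted threshold without laser library 2. The other 5 ATPases lay between −0.08 and 0.18.

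In the lid and base, genes lay on both sides of 0. Of the 11 genes, 6 lay below 0 and 5 above, with a median of −0.04. At an unadjusted p under 0.05, 2 were lower (Psmd6 and Psmd14) and 2 higher (Psmd2 and Psmd3), against 7.68% and 8.24% of all genes. The summed level of 1551 to 1772 CPM in control libraries overlapped with 1446 to 1747 CPM in laser libraries. After removal of the GC trend the median was −0.09. Again Psmd6 and Psmd14, 2 of the 11, were lower and none higher, against 4.38% and 3.8% of all genes.

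Psmd14 (ENSMUSG00000026914, chr2:61711694-61800376, plus strand) encodes the metalloprotease that cleaves ubiquitin chains off the substrate before it enters the core. It had the smallest p of all members, and ranked 10 among all genes. Control libraries lay at 166, 174 and 213 CPM and laser libraries at 132, 103, 123, 80.8 and 123 CPM, and the groups did not overlap. The log2 fold change was −0.68 ± 0.13 (adjusted p = 0.172), and −0.41 with the GC trend removed.

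Psmd6 (chr14:14112174-14120984, minus strand), a structural lid subunit, lay at 128, 132 and 187 CPM in control and at 108, 112, 101, 76.8 and 99.7 CPM in laser libraries. Here too every laser library lay below every control. The log2 fold change was −0.51 ± 0.14 (adjusted p = 0.172), −0.37 with the GC trend removed, and −0.42 without control library 3, which held the highest value.

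Psmd3 (chr11:98682554-98695979, plus strand), another structural lid subunit, went the other way, with 75.6, 98.3 and 117 CPM in control and 123, 136, 125, 115 and 114 CPM in laser libraries. Only control library 6 lay among the laser values. Its log2 fold change of 0.35 ± 0.13 (adjusted p = 0.214) was 0.08 with the GC trend removed, and its GC content of 58.3% was the highest of all members. Psmd2 (chr16:20651652-20663414, plus strand), the base subunit that docks ubiquitin shuttle receptors, lay at 123, 149 and 194 CPM in control and at 162, 283, 169, 224 and 167 CPM in laser libraries. Its log2 fold change was 0.39 ± 0.17 (adjusted p = 0.279), 0.34 (no longer past the unadjusted threshold) with the GC trend removed, and 0.24 without laser library 2, and it missed the unadjusted threshold when control library 1, 2 or 3 or laser library 2 or 4 was left out. The other 7 lid and base genes, among them the ubiquitin receptor Psmd4 (0.03 ± 0.10), lay between −0.24 and 0.09.

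Of all 48 members, 4 had groups that did not overlap in CPM, all lower after laser (Psma1, Psmb1, Psmd6 and Psmd14), against 0.863% of all genes lower without overlap. None was higher without overlap, against 1.4% of all genes. With the GC trend removed 3 members were lower without overlap, 2 of the lid and base and 1 of the beta ring, against 0.377% of all genes, and none was higher, against 0.5%.

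**Figure D4:**
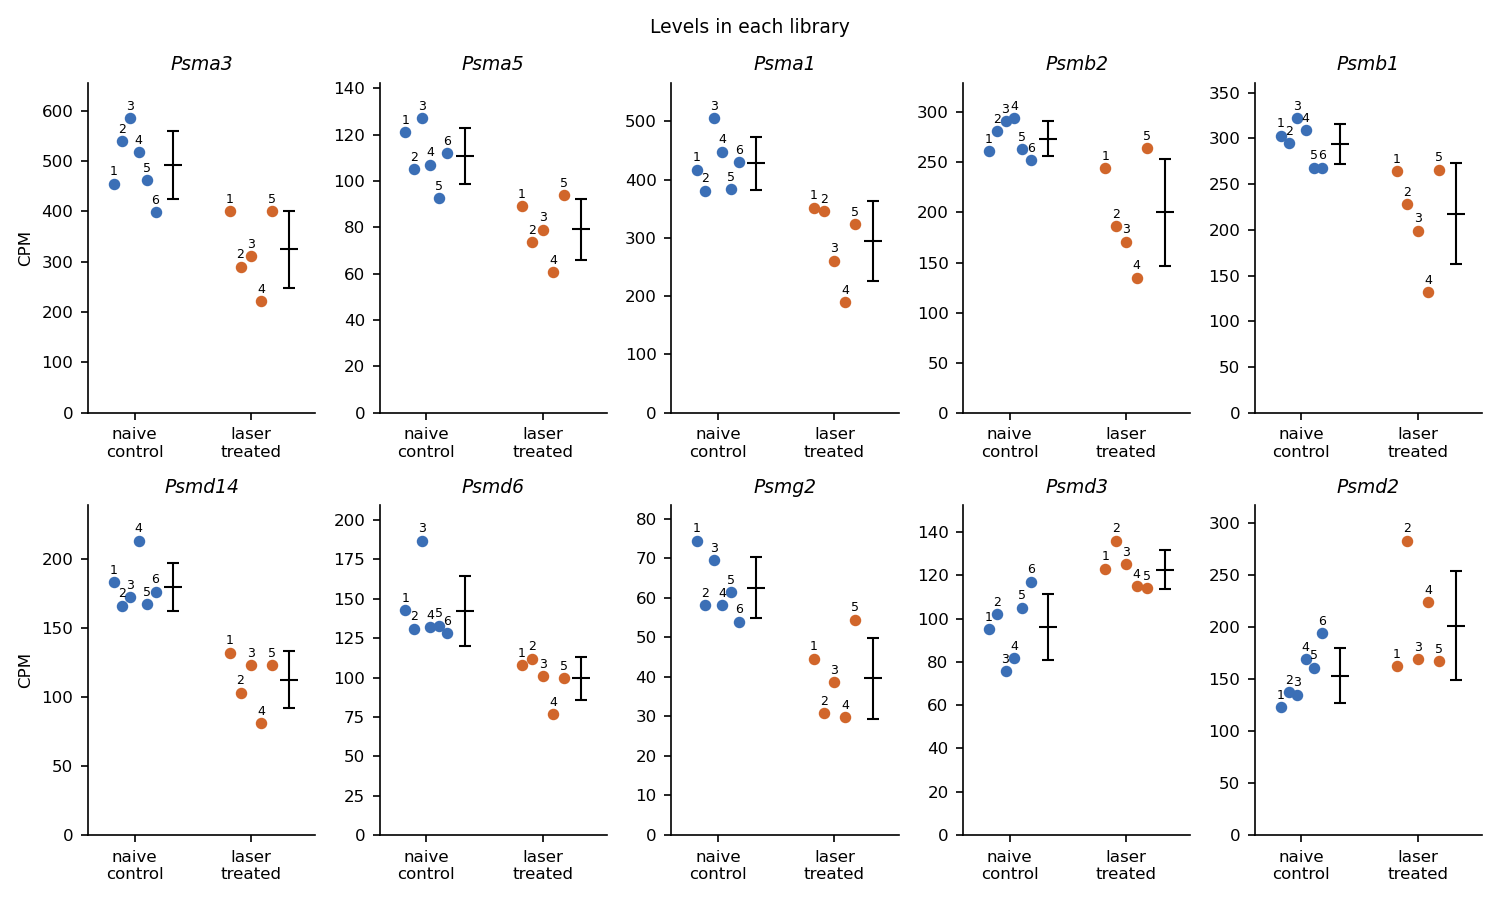
CPM in every library (numbered points) of 10 members, with the mean and SD of each group (6 naïve control, 5 laser treated) beside them. Psma1, Psmb1, Psmd14 and Psmd6 do not overlap between the groups, Psmd3 and Psmd2 are higher in the laser group, and laser library 4 is the lowest in the 8 genes that are lower.

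Of the 7 assembly chaperones, 5 lay below 0, with a median of −0.23, and 1 was lower past the unadjusted threshold, against 7.68% of all genes. Removal of the GC trend gave a median of −0.29, and 2, Psmg2 and Psmg4, were lower, against 4.38% of all genes. Psmg2, which pairs with Psmg1 to build the alpha ring, lay at 54, 59.8 and 74.5 CPM in control and at 44.6, 30.8, 38.7, 29.9 and 54.5 CPM in laser libraries. Laser library 5 alone reached the control range. Its log2 fold change was −0.66 ± 0.17 (adjusted p = 0.172) and −0.52 with the GC trend removed. Its partner Psmg1 had −0.23 ± 0.26, and Psmg4, which pairs with Psmg3, had −0.70 ± 0.37 (adjusted p = 0.39), and −0.91 with the GC trend removed, where it passed the unadjusted threshold. The chaperones of the 19S base, Psmd5, Psmd9 and Psmd10, had 0.07, 0.19 and −0.29. Psmc3ip, the gene outside the proteasome, had −0.62 ± 0.35 (adjusted p = 0.413) at 2.88 to 11.3 CPM, and 21.2% of its exons are shared with Mlx.

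The induced subunits of the immunoproteasome had lower levels than the constitutive beta subunits in every library. On the RPKM scale Psmb8 (8.98) and Psmb10 (13.6) lay above the median gene (5.08), and Psmb9 (2.76) below it. No difference between the groups was detectable at this spread between libraries. None of the 3 passed the unadjusted threshold, and their median log2 fold change was 0.05 (−0.20 with the GC trend removed). Psmb8 (chr17:34197721-34201454, plus strand), the induced chymotrypsin-like subunit, lay at 8.86, 11.2 and 27.8 CPM in control and at 9.45, 6.71, 11.6, 15.7 and 26.4 CPM in laser libraries, with a log2 fold change of −0.12 ± 0.39. Psmb9 (chr17:34181987-34187764, minus strand), which takes the place of the caspase-like subunit Psmb6, lay at 1.44, 3.27 and 5.1 CPM and at 4.63, 3.86, 1.88, 3.7 and 7.21 CPM, with 0.37 ± 0.47, and 5.79% of its exons are shared with Tap1. Psmb10 (chr8:105935735-105938444, minus strand), the induced trypsin-like subunit, lay at 14.6, 17.8 and 20.6 CPM and at 16.2, 17.5, 14.1, 15.3 and 27.6 CPM, with 0.05 ± 0.21.

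Their constitutive counterparts carried most of the transcripts. Psmb5 lay at 80.6, 97.6 and 104 CPM in control and at 106, 91.9, 91.6, 66.3 and 109.5 CPM in laser libraries (log2 fold change −0.03 ± 0.14). Psmb6 lay at 213, 225 and 252 CPM and at 217, 193, 185, 146 and 220.5 CPM (−0.24 ± 0.12, and −0.47, past the unadjusted threshold, with the GC trend removed). Psmb7 lay at 77.6, 90.0 and 92 CPM and at 98.1, 70.1, 66.8, 49.5 and 87.9 CPM (−0.23 ± 0.16), and 11.8% of its exons are shared with Nek6, which counts without a stated strand setting may not separate. Per transcript length, Psmb8 stood at 8.83% of Psmb5 in control and 8.29% in laser libraries, Psmb9 at 0.85% and 1.31% of Psmb6, and Psmb10 at 17.8% and 21.5% of Psmb7.

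The log2 ratio of each pair within a library, which does not depend on library size, was compared by an exact permutation test (two-sided, 462 possible group assignments), and its p was adjusted over the 3 ratios by Benjamini-Hochberg. Psmb8 to Psmb5 was −2.78 ± 0.66 (SD, n = 6) in control and −2.87 ± 0.79 (SD, n = 5) in laser libraries, a difference of −0.09 with a 95% interval of −1.09 to 0.93 (exact p = 0.84, adjusted p = 0.84). Psmb9 to Psmb6 was −6.23 ± 0.67 and −5.61 ± 0.62, a difference of 0.62 with an interval of −0.27 to 1.51 (exact p = 0.145, adjusted p = 0.218). Psmb10 to Psmb7 was −2.32 ± 0.14 and −2.04 ± 0.39, a difference of 0.28 with an interval of −0.13 to 0.64 (exact p = 0.139, adjusted p = 0.218). The intervals leave room for changes in either direction, and for Psmb9, with 53 counts in its lowest library, for an increase of over 1 log2 unit. The last ratio depended on 1 library and on the processing. Its difference was 0.42 without laser library 1 (exact permutation p = 0.00952), −0.04 with the GC trend removed (exact p = 0.805) and 2.25 in TPM (exact p = 0.307). In TPM the log2 fold change of Psmb7 was −2.09 and −3.50 with pseudocounts of 1 and 0.1, against −0.23 in counts. That of Psmb10 was −0.24 and −0.28, so the TPM ratio followed Psmb7 and its size depends on the pseudocount.

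**Figure D5:**
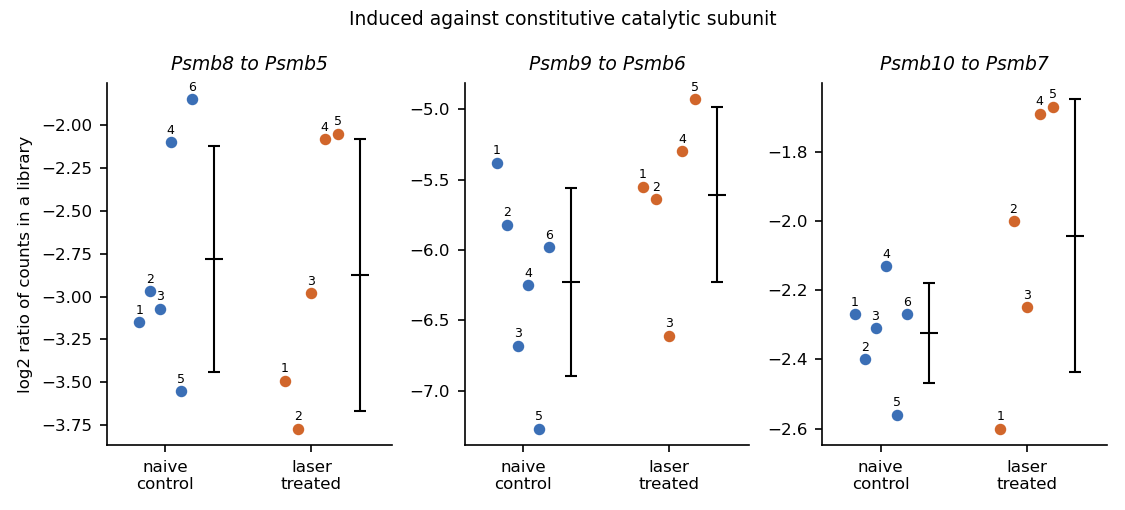
The log2 ratio of counts of an induced to a constitutive catalytic subunit in each library (numbered points), with the mean and SD of each group (6 naïve control, 5 laser treated). The groups overlap in all 3 ratios, and laser libraries 4 and 5 hold the highest Psmb10 to Psmb7 ratios, −1.69 and −1.67.

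None of the 4 activators nor the inhibitor passed the unadjusted threshold, in the counts or with the GC trend removed, where the activators had a median of −0.07 (0.01 before) and the inhibitor had 0.04. Psme1 and Psme2, which form the interferon-inducible cap that opens the core without ATP, had log2 fold changes of 0.03 ± 0.20 and −0.14 ± 0.18. Psme2 lay at 43.7, 56.9 and 72.5 CPM in control and at 53.9, 44.5, 45.5, 38.2 and 72 CPM in laser libraries. Psme3, the nuclear member of that family, had −0.01 ± 0.12 and the large activator Psme4 0.12 ± 0.36. Psmf1, which binds the core and inhibits it in the test tube, lay at 51.8, 58.9 and 81.2 CPM and at 69.5, 64, 54.4, 73.1 and 42.4 CPM (−0.02 ± 0.17).

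As a family the members were highly expressed. On the RPKM scale (CPM per kilobase of the longest annotated transcript), the median member stood at 67.3 and the median gene at 5.08. Of the 48 members, 45 lay above the latter. The highest were Psma1 (306), Psmb2 (279.5) and Psmb6 (265), and the lowest were Psma8 (0.491) and Psmb9 (2.76), as means over the 11 libraries. On that scale the 14 standard core genes, whose subunits enter the core in equal number, spanned 4.35-fold. The length used was 2846 bases for Psma3, 2911 for Psma2 and 1201 for Psma1. Which transcript is expressed was not tested, so the order of levels per length may depend on this choice. In the control libraries each gene overlapped with its neighbour in that order, from Psma1 at 356 ± 38.4 RPKM (SD, n = 6) to Psmb7 at 75.2 ± 4.96. The class medians were 112 RPKM for alpha, 124 for constitutive beta, 97.2 for the ATPases, 69.7 for the lid and base, 18.9 for assembly chaperones and 8.98 for induced subunits.

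Transcription of proteasome genes is known to be raised by Nfe2l1, a membrane-bound factor that is cut and released when proteasome activity is low and binds antioxidant response elements (ARE), and many proteasome promoters also hold a CCAAT box, which NF-Y binds. The RefSeq promoter windows (250 bases before to 50 after the start, GRCm38.p6) were searched on both strands for TGACNNNGC, the ARE core, and for CCAAT, and 40 of the 48 members had a window. The ARE core was found in 6 of the 40 (15%), against 17.2% of the genes of the table and 14% of all RefSeq windows, and in 1 of the 9 lower members with a window (11.1%). CCAAT was found in 14 of the 40 (35%) against 42.8% and 41.1%, in 5 of the 9 lower members (55.6%), in 6 of 11 alpha and beta genes (54.5%) and in 4 of 14 cap genes (28.6%). These are matches of letters and no evidence of binding.

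The matches of the members with the smallest p that had one are shown first for CCAAT (Psmd14 and Psma3), because these lead the lower genes. They are followed by those for the ARE core in Psmc6, the ATPase whose sign depended on GC content, and in the catalytic subunits Psmb6 and Psmb5. Each is written 5′ to 3′ on the strand of the gene, with the match in capitals (ATTGG is CCAAT, and GCNNNGTCA the ARE core, on the other strand).
Psmd14, chr2:61711505-61711569, plus strand: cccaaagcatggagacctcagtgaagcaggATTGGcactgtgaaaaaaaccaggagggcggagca
Psma3, chr12:70974454-70974518, plus strand: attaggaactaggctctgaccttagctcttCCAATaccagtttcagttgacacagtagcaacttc
Psmc6, chr14:45329574-45329635, plus strand: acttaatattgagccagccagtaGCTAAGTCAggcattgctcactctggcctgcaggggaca
Psmb6, chr11:70525318-70525356, plus strand: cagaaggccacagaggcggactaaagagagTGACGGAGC
Psmb5, chr14:54618004-54618072, minus strand: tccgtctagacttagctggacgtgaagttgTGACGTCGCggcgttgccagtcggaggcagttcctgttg
Each of the CCAAT windows held 3 matches, of which the only one that lies before the start is printed. It begins 159 bases before the start in Psmd14 and 139 in Psma3. The ARE core begins 227 bases before it in Psmc6, 47 in Psmb5 and 9 in Psmb6, where the printed stretch ends at the last base before the start.

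Of the 5 measured proteasome genes that carry other symbols, 4 had a log2 fold change below 0 and 1 above. Of 5 measured, 2 were lower and 1 higher at an unadjusted p under 0.05, against 7.68% and 8.24% of all genes. The median log2 fold change of the 5 was −0.39 (−0.21 with the GC trend removed). Pomp, the chaperone that matures the half-built core, had a mean of 123 ± 13.3 CPM over the 6 controls (SD) and 94.2 ± 21.5 CPM over the 5 laser libraries, which gave −0.39 ± 0.15 on the log2 scale (adjusted p = 0.241). With the GC trend removed Pomp had −0.33, still past the unadjusted threshold, which 4.38% of all genes passed as lower. Shfm1, a small lid subunit, had −0.76 ± 0.28 (adjusted p = 0.227), and Adrm1, the ubiquitin receptor of the base, had 0.42 ± 0.14 (adjusted p = 0.194), and they had −0.32 and 0.13 with the GC trend removed, where neither passed the unadjusted threshold.

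Among the 9 shuttle receptors and deubiquitinases that work at the cap, 4 were lower and none higher at an unadjusted p under 0.05 (7.68% and 8.24% of all genes), with a median of −0.09. With the GC trend removed the median was 0.04, and 1 of the 4, Ubqln2, still passed that threshold. Uchl5, a deubiquitinase that binds Adrm1, had −0.49 ± 0.15 (adjusted p = 0.177), and −0.11 with the GC trend removed. Ubqln2, a shuttle that carries ubiquitinated proteins, had −0.77 ± 0.24 (adjusted p = 0.181) and −0.77 with the GC trend removed. Of 6 ubiquitin and E1 genes, 1 was lower and 1 higher at an unadjusted p under 0.05, against 7.68% and 8.24% of all genes. Rps27a, which encodes ubiquitin fused to a ribosomal protein, was lower (−0.72 ± 0.24, adjusted p = 0.203). The activating enzyme Uba1 was higher (0.29 ± 0.12, adjusted p = 0.262). With the GC trend removed the median of the 6 was 0.03 (−0.06 before), and Rps27a (−0.67) passed the unadjusted threshold while Uba1 (0.21) did not.

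Nfe2l1 itself lay at 104 ± 25.4 CPM in control and 118 ± 25.4 CPM in laser libraries (0.19 ± 0.19 on the log2 scale, adjusted p = 0.691). The list for Nfe2l1 and its processing held 8 genes, with Nfe2l1 itself and Nfe2l2 among them. None was lower and 3 were higher at an unadjusted p under 0.05, against 7.68% and 8.24% of all genes. Their median was 0.13, before and after the GC trend was removed. After removal 2 of the 3, Vcp and Nploc4, were higher, against 3.8% of all genes. The unfoldase Vcp, which extracts Nfe2l1 from the membrane, had 0.36 ± 0.13 (adjusted p = 0.224) and 0.38 with the GC trend removed. Its cofactor Nploc4 had 0.48 ± 0.16 (adjusted p = 0.203) and 0.35 with the GC trend removed.

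The genes of antigen presentation that interferon raises together with the immunoproteasome had a median log2 fold change of 0.40, and 4 of 10 were higher (H2-D1, H2-K1, Tap2 and Tapbp) and none lower at an unadjusted p under 0.05, against 8.24% and 7.68% of all genes. With the GC trend removed the median was 0.21 and H2-D1 alone of the 10 passed that threshold. H2-D1, a class I heavy chain, lay at 95.5 ± 24.9 CPM in control and 151 ± 14.7 CPM in laser libraries (0.66 ± 0.18 on the log2 scale, adjusted p = 0.174), and its log2 fold change was 0.43 with the GC trend removed. H2-K1 had 0.46 ± 0.15 (adjusted p = 0.195) and 0.23 with the GC trend removed. B2m, the light chain they share, had −0.42 ± 0.20 (adjusted p = 0.332). Class I heavy chains are a family of close copies, so reads can be split between them and their values are uncertain.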

How the data were processed

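RNA of RPE and choroid was sequenced in 11 libraries (6 naïve control, 5 laser treated). Per the labels, the authors used bcl2fastq 2.18.0.12, Trim Galore, STAR 2.5.3a, featureCounts 1.5.3, StringTie 1.3.3 and edgeR 3.22.3 on mm10/GRCm38, and the annotation and strand setting are not given in the sources used here. The deposited count table holds unnormalised whole-number counts per gene. The log2, score (F) and p-value columns deposited beside them are the authors' own comparison and were not used. The deposited transcript files hold TPM of single-exon StringTie transcripts, summed here over transcripts with at least 50% of their length in a gene's exons and used as an alternative only.

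Counts were fitted over all 14602 genes with edgeR 4.0.16 (TMM, filterByExpr, which removed 0 genes, robust quasi-likelihood F test, R 4.3.3) and Benjamini-Hochberg adjustment, with no covariate. Standard errors are those of the log2 fold change. GC content and length are those of the longest GENCODE M21 transcript of the gene's own type (97.6% of genes matched). The GC trend was removed per library by loess (span 0.3) as an offset. Ratios used a pseudocount of 0.5 counts. Reads carry no molecular identifiers, so counts after pre-amplification are not independent molecules. Libraries of a group differed beyond counting noise (lowest chi-square per gene 63.2). No column of per-sample values was left out.

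Alternatives were DESeq2 1.42.0, upper quartile scaling, limma 3.58.1 (voom, and TPM with pseudocounts of 1 and 0.1), other filters, GC and length trends, the header label R1 or R2, the replicate number as a block, and leaving out libraries. The members and gene lists were chosen with earlier results of these data known, so no p was adjusted over a list alone. Values in every library are given for the induced subunits and their counterparts, the member with the smallest p of each class, the 10 smallest p, members without overlap, the highest and lowest level per length, and the member furthest against the median, and, in other lists, the 2 smallest p. Other genes were named after their values were seen. Sequences are from RefSeq (GRCm38.p6). Some list members enter the counts and medians of their list but are not reported by name here.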

Additional observations from a re-analysis of the deposited data

Results flagged for a closer look

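In 54 groups of values (1 gene in 1 treatment group each), the gap of the highest or lowest library to its nearest neighbour was set against the range of the group, and in 4 it was beyond Dixon's critical value. Chance gives this in about 5% of groups. Psma8, which was otherwise between 0 and 1.03 CPM in control libraries, had 5.05 CPM in naïve control library 4. The same library held the highest control value of Psmd14, at 213 CPM, with the next at 183 CPM and the lowest at 166 CPM. Psmd6 had 187 CPM in naïve control library 3, with the next control at 143 CPM and the lowest at 128 CPM, and the log2 fold change without that library was −0.42 against −0.51 with it. Psmb10 had 27.6 CPM in laser treated library 5, with the next at 17.5 CPM and the lowest at 14.1 CPM, and its log2 fold change was −0.15 without that library. The causes were not tested.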

How the results depend on the processing

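The median log2 fold change of the members stayed below 0 in the 28 other settings tried, from −0.21 to −0.09 when libraries were left out in turn, but was −0.02 and −0.01 in TPM (pseudocounts of 1 and 0.1) and −0.02 within R1. The count with an adjusted p under 0.05 was 6 with DESeq2 and 3 (Psma3, Psmd14, Psmg2) without naïve control library 6 and laser library 5, and 0 in each leave-one-out fit. Those libraries held the lowest control and the highest laser sum of alpha transcripts. The lower count was 12 as reported, 10 to 16 when libraries were left out in turn, 7 with the GC trend removed and the replicate block, 5 and 4 in TPM with pseudocounts of 1 and 0.1, and 5 within R1 and 5 within R2, where fewer libraries were fitted. The higher count was 2 as reported, 1 to 2 when libraries were left out, 1 with voom, with the length trend removed, and with the GC trend removed and the block, 0 with the GC trend removed, in both TPM fits and within R2, and 4 within R1. Removing the GC trend without laser library 5, a setting chosen after seeing the data, called 16 members, of which 9 were among the 14 reported. For the lower and higher counts, the share of all genes was computed only in the reported fit and with the GC trend removed. Whether the other counts moved with the members or with all genes was not tested.

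Replicate numbers did not clearly pair the samples. The correlations of same-numbered deviations were −0.01, 0.12, 0.28, −0.01 and −0.01, and 2 of 5 laser libraries correlated best with the control of their own number. Whether some libraries with the same number share a batch was not tested. The replicate block called the same 14 members and turned Psmb8 to 0.05.

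Of the genes given library by library, signs changed in those that follow. Psmc6 was 0.08 with the GC trend removed, also with the block, and 0.09 without laser library 5. Psmb10 was −0.20, −0.27 and −0.42 in those fits, −0.24 and −0.28 in TPM, −0.02 within R1 and −0.16 without both libraries. Psmf1 was 0.04, 0.04 and 0.14 in the GC fits, 0.20 in TPM, 0.21 within R1 and 0.08 without both libraries. Psmb5 was 0.23 with the length trend removed, 0.13 in TPM and 0.16 within R1, Psmb6 0.08 and Psme2 0.07 with the length trend removed, Psme2 0.06 within R1, Psmb1 0.08 in TPM, Psma8 1.62 within R1, and Psmb9 −0.11 with the GC trend removed and without laser library 5. With libraries left out in turn, the ranges that crossed 0 were −1.96 to 0.55 for Psma8, −0.48 to 0.15 for Psmb8, −0.09 to 0.06 for Psmb5, −0.15 to 0.13 for Psmb10 and −0.12 to 0.08 for Psmf1.

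Of the ratios, Psmb8 to Psmb5 was 0.13 within R2, 0.10 within replicate numbers (replicate block) and −0.30 to 0.13 with libraries left out. Psmb10 to Psmb7 was −0.04 with the GC trend removed and 0.19 to 0.42 with libraries left out, with an exact p of 0.00952 without laser library 1. Beyond the steps that use fewer libraries, the causes were not tested.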
